A study of Mus musculus with 5 samples.

Results

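The genes described here encode the building blocks of the hepatocyte cytoskeleton. They are the keratins Krt8 and Krt18, the cytoplasmic actins Actb and Actg1, the tubulins Tuba1b, Tuba1c, Tubb5, Tubb2a and Tubb4b, and the tubulin-binding protein stathmin (Stmn1). These 10 genes, of 31053 in the feature list, were chosen by name, with earlier results of these data known, and all 10 were present in every library. They were measured in 5691 hepatocytes from 5 droplet-based single-cell RNA sequencing libraries of mouse liver cells. A hepatocyte was a barcode with at least 5000 unique molecular identifiers (UMIs, counts of captured RNA molecules), of which 10% to 30% were mitochondrial and at least 1% came from Alb, Apoa1 and Ttr together.

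All mice were of the C57BL/6J strain, and each group was 1 library. One library came from untreated mice at postnatal day 14 (P14). The libraries called 24 h, 48 h and 96 h came from mice operated on at 8 weeks of age and taken that long after partial hepatectomy (PHx), in which most of the liver is cut away. The remaining library was titled an adult control, although the treatment text counts it among the operated animals. It was taken as the control. Sex and the number of animals are not given in the labels. Cells were released by perfusion and passed through a dead-cell removal kit. With 1 library per group, a difference between groups has no replicate check and no test, and intervals cover counting error only. A code in the sample descriptions was L002 for the adult control and L001 elsewhere. Whatever that code stands for cannot be told apart from the control group.

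Keratin 8 and keratin 18 pair to form the intermediate filaments of hepatocytes, which hold the cell together under mechanical stress. Actin filaments support the cell cortex and the bile canaliculi between hepatocytes, and in dividing cells they form the ring that separates the daughters. Microtubules are polymers of alpha and beta tubulin, each made by several genes (isotypes). They carry vesicles and secreted proteins, and are rebuilt into the spindle at mitosis. Stathmin binds free tubulin and favours disassembly of microtubules. After partial hepatectomy most hepatocytes of the remaining liver re-enter the cell cycle, whereas those of a young liver divide as the organ grows.

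The rule found 925 hepatocytes for the adult control, 1170 for 24 h, 719 for 48 h, 771 for 96 h and 2106 for P14. Median depth ran from 18527 UMIs per cell in the adult control to 38922 at P14. A hepatocyte was called positive when it held at least 1 UMI of Mki67 or Top2a, markers of cycling cells. All others were called negative, and may include cells in the cycle. Positive cells numbered 15 for the adult control, 360 for 24 h, 400 for 48 h, 136 for 96 h and 589 for P14. Levels are UMIs summed over cells and given as CPM, the standard depth-scaled unit, relative to all non-mitochondrial UMIs of the same cells. All 7 hepatocyte markers were present in every library, whereas the cholangiocyte keratins Krt19 and Krt7 had no UMI in 4 and 3 libraries, respectively. The sum of all 8 cholangiocyte markers in hepatocytes was 38.0 CPM for the adult control, 105 for 24 h, 50.9 for 48 h, 195 for 96 h and 57.7 for P14, with 3 to 8 of them detected. Spp1 or Sox9 led it in every library. Of the 5688 distinct hepatocyte barcodes, 3 occurred in more than 1 library.

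RefSeq promoter entries (GRCm38.p6, the mm10 assembly) were found for 8 of the 10 genes. The 250 bases before each start were searched on both strands for the CCAAT box (CCAAT or ATTGG), the cell cycle homology region (TTTGAA or TTCAAA), the TATA box (TATAAA or TTTATA) and the serum response element known as the CArG box. Among 32851 promoters of the same length, 33.8% held a CCAAT box, 16.0% a cell cycle homology region, 12.4% a TATA box and 1.47% a CArG box. The 3 stretches below show the matches in Tubb4b and Tubb5, which were higher in positive cells, and in Actg1. Capitals mark CCAAT boxes, TTTGAA and the CArG box. All 3 run 5′ to 3′ on the minus strand, at chr2:25224703-25224932, chr17:35838367-35838511 and chr11:120348566-120348625.
Tubb4b: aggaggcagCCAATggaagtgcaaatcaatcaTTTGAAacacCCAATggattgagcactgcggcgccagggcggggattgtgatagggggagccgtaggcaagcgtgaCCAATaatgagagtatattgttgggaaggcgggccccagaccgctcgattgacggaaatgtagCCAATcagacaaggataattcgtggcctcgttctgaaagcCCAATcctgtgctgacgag
Tubb5: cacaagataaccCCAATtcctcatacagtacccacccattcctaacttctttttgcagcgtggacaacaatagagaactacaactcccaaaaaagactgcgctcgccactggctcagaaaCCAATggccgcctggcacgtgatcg
Actg1: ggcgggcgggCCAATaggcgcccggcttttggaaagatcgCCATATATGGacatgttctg
The Tubb4b promoter held 5 CCAAT boxes and 1 TTTGAA, that of Tubb5 held 2 CCAAT boxes, and that of Actg1 held 1 CCAAT box and 1 CArG box. Tuba1c had 1 CCAAT box and Tubb2a 1 TATA box. No match was found in this window for Krt8, Krt18 or Tuba1b. These matches are letters in a sequence, and binding was not measured.

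Together the 10 genes gave 0.191% of the non-mitochondrial UMIs of adult control hepatocytes, 0.496% at 24 h, 0.404% at 48 h and 0.258% at 96 h after PHx, and 0.183% at P14. At 24 h 7 of the 10 were at least 2-fold higher than in the adult control. The number was 8 at 48 h, 3 at 96 h and 3 at P14, and none was 2-fold lower in any of these libraries. All 10 passed the filter of 5 CPM in either library. Among all genes tested the same way, 8.51% were 2-fold higher and 7.13% lower at 24 h, 8.3% and 7.63% at 48 h, 4.07% and 1.88% at 96 h, and 7.89% and 13.8% at P14. The members' median log2 ratio was 2.04 at 24 h, 2.11 at 48 h, 0.85 at 96 h and 0.43 at P14, against −0.00, −0.08, 0.04 and −0.26 over all genes. At 24 h the other 3 members were just short of 2-fold, at log2 ratios of 0.97 for Actb, 0.96 for Tubb4b and 0.94 for Tuba1c. Under 5 of 12 alternative settings Actb passed it, and with free RNA subtracted all 10 members did, Tubb4b at 1.08. These 4 comparisons share the adult control.

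**Figure D1:**
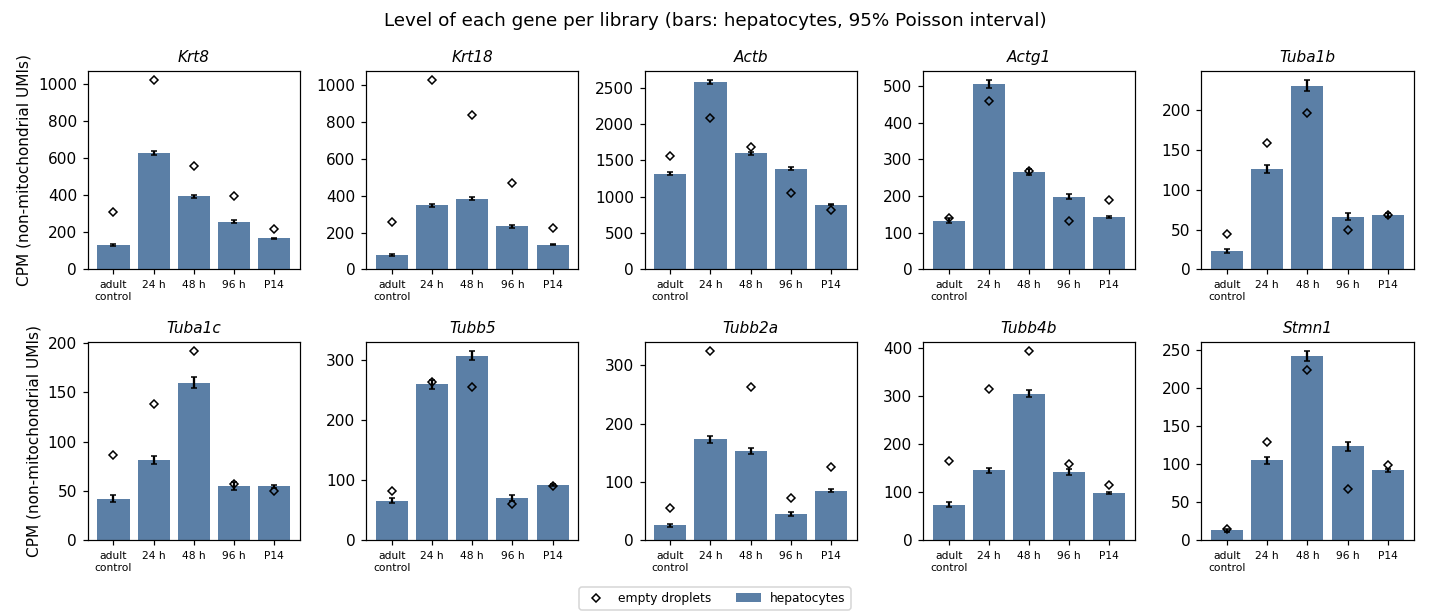
Level of each gene (vertical axis, CPM of non-mitochondrial UMIs) in the 5 libraries. Bars are summed hepatocytes with the 95% Poisson interval, and open diamonds are empty droplets. Bars of Krt8, Actb, Actg1 and Tubb2a are highest at 24 h, those of Krt18, Tubb5, Tuba1b, Tuba1c, Tubb4b and Stmn1 at 48 h, and the Krt18 diamonds lie above the bars in every library.

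The keratins were higher than in the adult control at all 3 times after PHx, and differed by less than 2-fold between positive and negative cells. Krt8, on the minus strand of chromosome 15 at 101996698 to 102004482, stood at 133 CPM in the adult control, 630 CPM at 24 h, 394 CPM at 48 h, 258 CPM at 96 h and 169 CPM at P14. Krt18, on the plus strand at 102028180 to 102032027, stood at 78.9, 348, 384, 235 and 134 CPM in the same order. The neighbouring genes, 23.7 kb apart, differed in timing: Krt8 was highest at 24 h, whereas Krt18 held its level at 48 h. Between 24 h and 48 h the log2 ratio was −0.68 for Krt8 (95% interval −0.72 to −0.64) and 0.14 for Krt18 (0.09 to 0.19).

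Against the adult control Krt8 was 4.76-fold higher at 24 h (95% interval 4.52 to 5.00), 2.98-fold at 48 h and 1.95-fold at 96 h. Krt18 was 4.41-fold higher at 24 h (4.14 to 4.71), 4.86-fold at 48 h and 2.98-fold at 96 h. At P14 the excess over the adult control was 1.27-fold for Krt8 and 1.70-fold for Krt18, both short of 2-fold. Krt18 passed 2-fold there with TMM scaling, DESeq2 scaling or free RNA subtracted, at log2 ratios of 1.04, 1.02 and 1.11 in place of 0.76. Under 1 of 13 alternative settings Krt8 was lower than in the adult control, at −0.22. That setting was hepatocyte transcripts of at least 5%, which left 47 adult control cells. The share of Krt8 in the summed UMIs of the pair was 62.7% in the adult control (exact binomial interval 60.9% to 64.5%). It was 64.4% at 24 h, but 50.7% at 48 h, 52.3% at 96 h and 55.7% at P14. Single hepatocytes shared the shift: the median Krt8 level per cell was 116 CPM in the adult control and 587 CPM at 24 h, where the 10th percentile of cells was 268 CPM.

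Krt8 at 48 h depended on the mitochondrial range of the cells. In cells with 10% to 20% mitochondrial UMIs its log2 ratio over the adult control was 1.00, just short of 2-fold, against 1.57 in the full range, and at 24 h it was 1.71 against 2.24. Without cells in which markers of other classes, cholangiocytes included, made up 0.1% of UMIs, Krt8 was at 2.23 at 24 h and 0.95 in the 96 h library, and Krt18 at 2.07 and 1.41. That setting left out 369 of 925 hepatocytes of the adult control, 350 of 1170 at 24 h and 75 of 771 at 96 h. In the narrower mitochondrial range Krt18 was 2.12 against 2.13 at 24 h and 2.02 against 2.27 at 48 h.

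Positive cells did not carry more keratin by a 2-fold margin in any library. Krt8 stood at 582 CPM in positive and 659 in negative cells at 24 h, at 405 and 375 at 48 h, at 303 and 246 at 96 h, and at 194 and 158 at P14. For Krt18 the pairs were 332 and 358, 397 and 361, 261 and 228, and 143 and 131 CPM. Positive cells were therefore slightly lower at 24 h and slightly higher in the other 3 libraries. With TMM or DESeq2 scaling, which moved the median of all genes in this comparison by −0.11 to −0.27, the sign of Krt18 at 48 h, 96 h and P14 and of Krt8 at 48 h turned negative. For Krt18 at 96 h 5 of 14 alternative settings gave a negative sign, down to −0.28 with cells thinned to 5000 UMIs. Among negative cells alone the log2 ratio over the adult control was 2.31, 1.5 and 0.89 at 24 h, 48 h and 96 h for Krt8, and 2.17, 2.18 and 1.52 for Krt18.

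Keratin RNA was also abundant outside cells. Empty droplets (the plateau of low barcodes down to UMI rank 60000) held Krt18 at 1027 CPM at 24 h and 840 at 48 h, 2.95 and 2.19 times its level in hepatocytes, and Krt8 at 1021 and 557 CPM. At the UMI load of an empty droplet, free RNA would give 29.7% of the Krt18 UMIs of adult control hepatocytes, 11.7% at 24 h, 2.1% at 48 h, 8.8% at 96 h and 2.5% at P14. With that amount subtracted, the log2 ratio over the adult control was 2.37, 2.62 and 1.86 at 24 h, 48 h and 96 h for Krt18, and 2.42, 1.77 and 1.13 for Krt8, each larger than before.

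Barcodes with T or NK cell markers, which should lack keratins, gave the background. They lay outside the hepatocyte rule, but their hepatocyte markers were not limited, so hepatocyte material in the same droplet was not screened out. With every barcode thinned to 5000 UMIs, Krt8 was found in 88.5% of hepatocytes at 24 h and in 43.9% of 57 T or NK barcodes. At 48 h the shares were 75% and 11.6%, at 96 h 56.0% and 26.4%, at P14 46.1% and 6.25%, and in the adult control 38.1% and 27.6%. Before thinning, Krt8 was found in 79.0% to 99.6% of hepatocytes, whose median depth was 18527 to 38922 UMIs against 6400 to 7713 in those T or NK barcodes. For Krt18 the adult control shares were equal, at 23.9% in both, and that share is not read as expression. The T or NK barcodes held 6527.5 UMIs in the median before thinning and the hepatocytes 18527, so the weight of free RNA in them differed too. At 48 h the Krt18 shares were 63.8% and 16.3%.

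**Figure D2:**
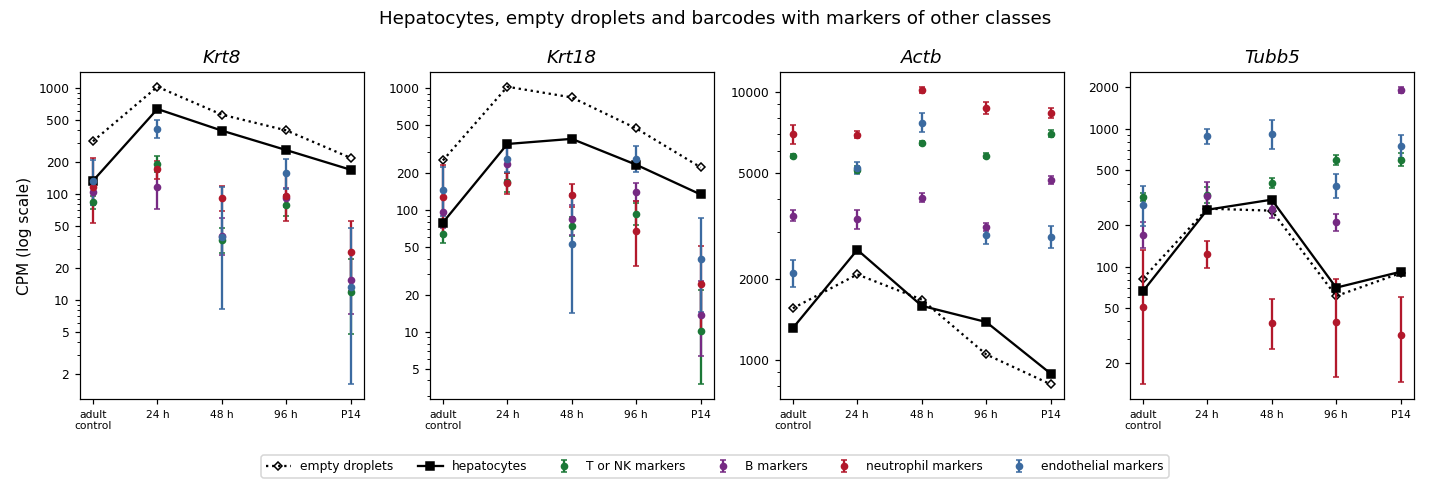
Level (CPM, log axis) of Krt8, Krt18, Actb and Tubb5 in hepatocytes (squares), empty droplets (diamonds) and barcodes with markers of T or NK cells, B cells, neutrophils or endothelial cells (points with 95% Poisson intervals). Hepatocyte Krt8 lies above all 4 marker classes at 24 h, 48 h, 96 h and P14 but below the empty droplets, and hepatocyte Actb lies below all 4 marker classes in every library.

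Keratin 18 also differed along the lobule. In each library hepatocytes were ordered by the share of 6 periportal genes (Cyp2f2, Hal, Sds, Hsd17b13, Ctsc, Pigr) among these and 6 pericentral genes (Cyp2e1, Oat, Glul, Cyp1a2, Lect2, Rgn), and equal numbers from both ends were compared. This split is a range of a score within each library, set after the data were seen, and the ends are not like cells across libraries. The median periportal share was 71.9% for the adult control, 33.3% for 24 h, 16.4% for 48 h, 68.8% for 96 h and 10.6% for P14. The periportal end at 48 h began at 32.9% and that of P14 at 18.6%, both below the 48.2% at which the pericentral end of the adult control stopped. At 24 h Krt18 stood at 444 CPM in 390 periportal and 266 CPM in 390 pericentral cells, and at 48 h at 565 and 248 CPM in 239 cells each. The log2 ratio was 0.74 at 24 h (95% interval 0.65 to 0.83) and 1.18 at 48 h (1.11 to 1.27), whereas the adult control gave 0.38, the 96 h library 0.21 and P14 0.17. In negative cells alone it was 0.78 at 24 h and 1.08 at 48 h.

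Krt8 followed the same direction at smaller size after PHx, with 722 against 569 CPM at 24 h (log2 ratio 0.34) and 480 against 322 CPM at 48 h (0.58). In the adult control its ends were at 134 and 130 CPM and at 96 h at 259 and 265 CPM. The ends also differed in their share of positive cells, with 20.8% periportal and 37.7% pericentral at 24 h, and 58.2% and 49.4% at 48 h. At 24 h 143 cells and at 48 h 184 cells lay within 5 percentage points of the pericentral limit, and 94 and 58 of the periportal limit. At P14 1002 of 2106 cells lay that near the pericentral and 321 the periportal limit, in the adult control 47 and 197 of 925, and at 96 h 36 and 135 of 771. The difference in slope between libraries was not tested.

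Among the partners of keratin and the lamina, 4 of 9 tested genes were 2-fold higher at 24 h, 3 of 10 at 48 h, 1 of 8 at 96 h and 0 of 8 at P14, and 1 was lower, at P14. Of all genes 8.51%, 8.3% and 4.07% were 2-fold higher at those 3 times and 13.8% lower at P14. In negative cells alone 2 of 9 were higher at 24 h, 0 of 10 at 48 h, 1 of 8 at 96 h and 0 of 8 at P14, beside 5.86%, 4.37%, 3.12% and 6.61% of all genes. In positive over negative cells 1 of 9 was higher at 24 h, 2 of 10 at 48 h, 2 of 8 at 96 h and 2 of 9 at P14, beside 4.41%, 5.56%, 5.35% and 4.22%. The median log2 ratio over the adult control was 0.43, 0.62 and 0.38 at 24 h, 48 h and 96 h, and −0.37 at P14. Periplakin (Ppl), which links keratin filaments to cell junctions, stood at 9.01 CPM in the adult control, 36.9 CPM at 24 h, 24.2 CPM at 48 h and 28.6 CPM at 96 h. Epiplakin (Eppk1), a keratin-binding plakin, stood at 28.5 CPM in the adult control and 71.1 at 24 h. The desmosomal genes Dsp and Jup were at log2 ratios of −0.40 and −0.48 at 24 h. Lamin A (Lmna), of the nuclear lamina, stood at 46.3 CPM in the adult control and 106 at 48 h. Of the 11 other keratins listed, 1 to 2 reached 5 CPM in any comparison, and 1 was 2-fold higher, at P14.

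Actb is the most abundant member and is often taken as a reference gene. It stood at 1318 CPM in the adult control, 2579 CPM at 24 h, 1595 CPM at 48 h, 1388 CPM at 96 h and 891 CPM at P14. The 24 h library was highest and P14 lowest, 1.53 apart on the log2 scale. Over the adult control the log2 ratio was 0.97 at 24 h (95% interval 0.94 to 0.99), just short of 2-fold, 0.28 at 48 h, 0.07 at 96 h and −0.56 at P14. At 96 h 2 of 13 alternative settings turned the sign negative. Among commonly used reference genes, the range over the 5 libraries was wider for Tfrc, at 3.34, and Ywhaz, at 1.87, and narrower for B2m, at 1.23. For Gapdh it was 0.37, from 995 CPM in the adult control to 1285 at P14.

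Actg1, the second cytoplasmic actin, was lower in level and wider in range. It stood at 133 CPM in the adult control, 506 CPM at 24 h, 266 CPM at 48 h, 199 CPM at 96 h and 144 CPM at P14. The log2 ratio over the adult control was 1.92 at 24 h (1.85 to 2.00), 0.99 at 48 h (0.92 to 1.07), 0.57 at 96 h and 0.11 at P14. At 48 h Actg1 passed 2-fold under 6 of the 12 alternative settings that could be run. At 96 h it was 1.11, past 2-fold, with hepatocyte transcripts of at least 5%, which left 47 adult control cells. The highest value under any setting at P14 was 0.74. Actb made up 90.8% of the UMIs of both actins in the adult control (90.4% to 91.2%), 83.6% at 24 h, 85.7% at 48 h, 87.5% at 96 h and 86.1% at P14.

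The actins also parted in positive cells. Actg1 stood at 604 CPM in positive and 448 in negative cells at 24 h, at 319 and 173 at 48 h, at 257 and 183 at 96 h, and at 221 and 113 at P14. The log2 ratio was 0.43, 0.88, 0.49 and 0.96, so Actg1 was higher in positive cells of all 4 libraries and short of 2-fold. It passed 2-fold at 48 h with 10% to 20% mitochondrial UMIs, at 1.16, and at P14 under 3 of 15 alternative settings, at up to 1.35 when a positive cell needed 2 UMIs. Actb differed less, at −0.14 at 24 h, 0.04 at 48 h (−0.14 with TMM and −0.19 with DESeq2 scaling), 0.32 at 96 h and 0.32 at P14. In negative cells of 24 h, Actb and Actg1 were both past 2-fold over the adult control, at 1.03 and 1.78, but Actb was at 0.94 with 10% to 20% and 0.87 with 0% to 30% mitochondrial UMIs. At 48 h they were at 0.26 and 0.41.

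Actb levels were higher in barcodes of white blood cells than in hepatocytes. It stood at 6934 to 10206 CPM in barcodes with neutrophil markers and at 5139 to 6996 CPM in those with T or NK markers. In hepatocytes all 8 neutrophil markers had a UMI in every library except 96 h (7 of 8, with Ltf at 0). Their sum was 11.6 CPM in the adult control, 107 CPM at 24 h, 198 CPM at 48 h, 21.7 CPM at 96 h and 31.5 CPM at P14. Without cells in which markers of other classes made up 0.1% of UMIs, the log2 ratio at 24 h was 0.97 for Actb and 1.91 for Actg1. With them it was 0.97 and 1.92. That limit pools the markers of all other classes, so cells with small amounts of neutrophil RNA stay in. The part of white blood cell RNA in the actin levels was not tested.

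Of 30 actin-binding and actomyosin genes tested, 4 were 2-fold higher at 24 h, 1 of 29 at 48 h and 0 of 29 at 96 h, and none was lower, beside 8.51%, 8.3% and 4.07% of all genes 2-fold higher. Their median log2 ratio was 0.41, 0.26 and 0.21 at 24 h, 48 h and 96 h. The tropomyosins Tpm4 and Tpm1, which lie along actin filaments, led the list at 24 h, at 39.5 against 11.7 CPM and 91.5 against 32.1 CPM. Thymosin beta 4 (Tmsb4x), which binds free actin, was at the other end with 46.7 against 72.5 CPM. At P14 1 of 30 was 2-fold higher and 3 lower, with a median of −0.43. Of all genes there 7.89% were higher and 13.8% lower, with a median of −0.26.

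Actin genes are known targets of serum response factor, and of 10 other listed targets tested 3 were 2-fold higher at 24 h, 3 at 48 h, 2 at 96 h and 0 at P14. One target was 2-fold lower at 48 h and 3 were at P14. Of all genes 8.51%, 8.3%, 4.07% and 7.89% were higher and 7.13%, 7.63%, 1.88% and 13.8% lower at 24 h, 48 h, 96 h and P14, and the counts of these lists are to be read beside them. Tagln2, an actin-binding protein, was at 51.9 CPM at both 24 h and 48 h against 5.48 in the adult control. Zyxin (Zyx), of focal adhesions, was at 19.1 CPM at 48 h against 40.3. Of genes known to respond to tissue dissociation, 0 of 10 tested were 2-fold higher and 2 lower at 24 h, 3 of 11 higher and 2 lower at 48 h, 3 of 11 higher and 1 lower at 96 h, and 1 of 10 higher and 3 lower at P14. Their part in the levels of the actins was not tested. These lists overlap, so their counts are not separate. The list of serum response factor targets shares Tpm1, Tpm4, Flna and Myh9 with the actin-binding list. It shares Fos, Egr1 and Junb with the dissociation list.

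Stathmin and most tubulin genes differed both between libraries and, within a library, between positive and negative cells. Stmn1 was the most variable member. It stood at 13.4 CPM in the adult control (95% interval 11.5 to 15.6), 106 at 24 h, 242 at 48 h, 124 at 96 h and 92.0 at P14. That is 7.85-fold over the adult control at 24 h, 18.0-fold at 48 h (a log2 ratio of 4.07, 3.96 to 4.39), 9.23-fold at 96 h and 6.84-fold at P14. Over the alternative settings the log2 ratio ran from 2.30 to 3.34 at 24 h and from 3.43 to 4.62 at 48 h. It ran from 2.03 to 4.07 at 96 h and from 2.12 to 4.43 at P14. The 2-fold mark was passed in every one of these libraries.

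Within a library Stmn1 separated positive from negative cells more than any other member at 24 h, 48 h and 96 h. Positive and negative cells stood at 241 and 25.3 CPM at 24 h, 357 and 42.2 at 48 h, 442 and 38.3 at 96 h, and 261 and 25.5 at P14. In the adult control the 15 positive cells stood at 237 CPM (181 to 306) and the 910 negative cells at 9.18. The levels of positive cells at 24 h and P14 thus lay inside the interval of those of the adult control, whereas 48 h and 96 h lay above it. Stmn1 also differed along the lobule, where the share of positive cells differed as well, whose part in it was not tested. At 96 h it stood at 38.1 CPM in periportal and 212 CPM in pericentral cells, of which 5.06% and 32.7% were positive, and at P14 at 115 and 63.7 CPM, with 30.9% and 24.1% positive.

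Negative cells also held more Stmn1 after PHx, at log2 ratios over the adult control of 1.37 at 24 h, 2.09 at 48 h and 1.95 at 96 h, and 1.38 at P14. These values leaned on how a cycling cell was called. When a non-cycling cell had to show 0 mitosis genes and at most 1 replication gene at 5000 UMIs, the ratio was 0.59, 2.16 and 1.21 at 24 h, 48 h and 96 h. In cells of 10% to 20% mitochondrial UMIs, of which only 47 were negative at 96 h, it was −0.76 there. With both libraries thinned before the call it was 2.28, 3.39 and 2.69.

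Of the alpha tubulins, Tuba1b stood at 22.8 CPM in the adult control, 126 CPM at 24 h, 231 CPM at 48 h, 65.7 CPM at 96 h and 68.2 CPM at P14. Its neighbour Tuba1c, 95.3 kb away on chromosome 15, stood at 42.1, 81.6, 160, 55.4 and 54.7 CPM. Tuba1b was 5.56-fold higher than in the adult control at 24 h and 10.1-fold at 48 h (9.02 to 11.4), and Tuba1c reached 2-fold at 48 h, with a log2 ratio of 1.90, and stood at 0.94 at 24 h (1.06 with free RNA subtracted).

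The beta tubulins split by time. Tubb2a stood at 26.0 CPM in the adult control, 173 CPM at 24 h, 153 CPM at 48 h, 45.5 CPM at 96 h and 85.2 CPM at P14, and was highest at 24 h. Tubb5 stood at 66.1, 259, 306, 70.3 and 91.8 CPM, high at both 24 h and 48 h. Over all hepatocytes its log2 ratio at 96 h was 0.09 (−0.04 to 0.22), and −0.18 to 0.40 over 13 alternative settings. That sum joined negative cells at 32.0 CPM, against 63.7 in those of the adult control, with positive cells at 212 CPM. Tubb4b stood at 74.4, 146, 305, 142 and 98.2 CPM, and was highest at 48 h. Like the keratins, Tubb2a and Tubb4b were higher in empty droplets than in hepatocytes of every library, at 1.87 and 2.16 times the hepatocyte level at 24 h, and free RNA would give 7.4% and 8.6% of their UMIs there. From 24 h to 48 h the log2 ratio was −0.18 for Tubb2a, 0.24 for Tubb5 and 1.06 for Tubb4b. From 48 h to 96 h all 5 tubulins were lower by at least 2-fold, from −1.10 for Tubb4b to −2.11 for Tubb5. The keratins were at −0.61 and −0.70. Of all genes tested in that comparison, 3.6% lay below Tubb4b. Stmn1, at −0.96, was short of 2-fold, and 4.44% of genes lay below it. The share of all genes 2-fold lower thus lay between these percentages.

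**Figure D3:**
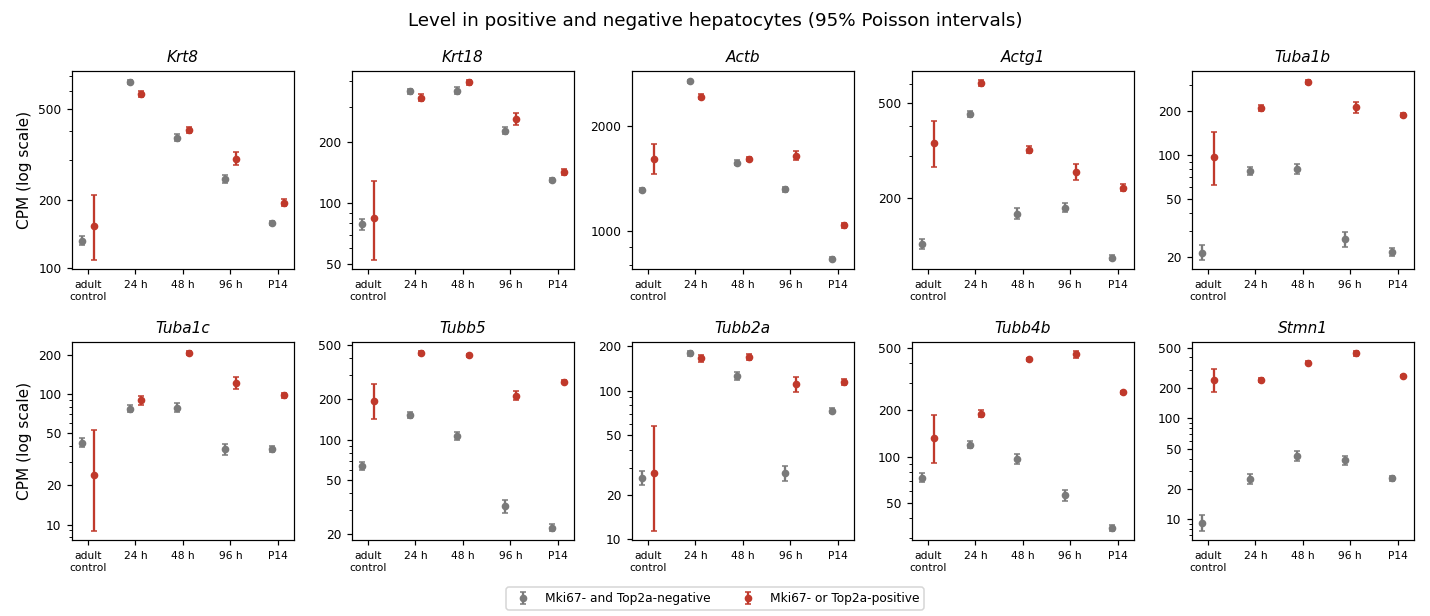
Level (CPM, log axis) of each gene in hepatocytes with (red) and without (grey) a UMI of Mki67 or Top2a, with 95% Poisson intervals, in the 5 libraries. Red and grey points are close for Krt8, Krt18 and Actb, and far apart for Stmn1, Tubb5, Tuba1b and Tubb4b at 48 h, 96 h and P14. The red points of the adult control rest on 15 cells.

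Against negative cells of the same library, positive cells were at least 2-fold higher for 3 members at 24 h (Stmn1, Tubb5, Tuba1b), 5 at 48 h and 5 at P14 (with Tubb4b and Tuba1c added) and 6 at 96 h (with Tubb2a as well). None was 2-fold lower. Over all genes tested, 4.41% were 2-fold higher and 0.0226% lower at 24 h, 5.56% and 0.249% at 48 h, 5.35% and 0.86% at 96 h, and 4.22% and 0% at P14. Mitosis genes are the measure nearest to the Mki67 and Top2a call, and 18 of 18 were 2-fold higher in positive cells of each of these 4 libraries. As the call itself picks cells by such genes, that count is no independent check of it. Positive cells were deeper than negative cells after PHx, with medians of 41820 and 30149 UMIs at 48 h, and about equal at P14, with 38903 and 38929.

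Tubb5 stood at 439 CPM in positive and 152 in negative cells at 24 h, 420 and 107 at 48 h, 212 and 32.0 at 96 h, and 268 and 22.3 at P14. Tubb4b stood at 190 and 120 at 24 h, 425 and 96.2 at 48 h, 458 and 56.4 at 96 h, and 260 and 34.6 at P14. Tuba1b stood at 209 and 77.8, 317 and 80.2, 211 and 26.5, and 186 and 21.7 CPM in the same order. For each of the 3 the gap was wider at P14 and 96 h than at 24 h, and the negative cells of P14 and 96 h were the lower ones.

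Tubb2a behaved otherwise. It stood at 165 CPM in positive and 178 in negative cells at 24 h, 168 and 126 at 48 h, 111 and 28.0 at 96 h, and 115 and 73.6 at P14. At 96 h it passed 2-fold, with a log2 ratio of 1.95 (1.75 to 2.22), and 1.09 when cells under 10% mitochondrial UMIs were added. At P14 the log2 ratio was 0.63, but 1.06 with cells thinned to 5000 UMIs and 1.07 when a positive cell needed 2 UMIs. Tuba1c was at 89.2 and 77.1 CPM at 24 h, a log2 ratio of 0.21, and past 2-fold in the other 3 libraries. At P14 positive cells also held erythroid markers at 327 CPM in sum, against 46.1 in negative cells, with all 7 that the files list detected in both. B cell markers were at 18.9 and 4.23 CPM there, with Stmn1 at 2078 and Tubb5 at 1915 CPM in the 76 barcodes with B cell markers. At 96 h erythroid markers were at 579 CPM in positive and 259 in negative cells. Without cells in which markers of other classes made up 0.1% of UMIs, the P14 log2 ratio was 3.54 for Tubb5, 2.89 for Tubb4b, 3.05 for Tuba1b and 3.30 for Stmn1, against 3.53, 2.87, 3.05 and 3.31 with them. The values at 96 h were 2.66, 2.99, 3.00 and 3.44, against 2.69, 3.00, 2.95 and 3.49. This setting left out only 32 of 2106 hepatocytes at P14 and 75 of 771 at 96 h. The part of other classes in these ratios was not tested.

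Set against negative cells of the adult control, negative cells gave the levels outside cells with a UMI of Mki67 or Top2a. Such cells may still be in the cycle. Of the replication genes tested in them, 16 of 18 were 2-fold higher at 24 h and 12 of 15 at 48 h. The counts were 2 of 8 at 96 h and 4 of 10 at P14, to be read beside the shares of all genes below. At 24 h 8 members were at least 2-fold higher, all but Tuba1c and Tubb4b. At 48 h 5 were (Krt8, Krt18, Tuba1b, Tubb2a, Stmn1), at 96 h 2 (Krt18 and Stmn1) and at P14 2 (Tubb2a and Stmn1), and at P14 Tubb5 and Tubb4b were 2-fold lower. Over all genes 5.86% were 2-fold higher and 7.4% lower at 24 h, 4.37% and 8.95% at 48 h, 3.12% and 1.97% at 96 h, and 6.61% and 15.4% at P14. Non-cycling cells of the 24 h library, called at equal depth, gave 6 members in place of 8, with Tubb5 at 0.95 and Stmn1 at 0.59.

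Tubb2a in negative cells stood at 178 CPM at 24 h against 25.9 in the adult control, a log2 ratio of 2.73 (2.61 to 2.95). It was at 2.24 at 48 h, 0.10 at 96 h and 1.47 at P14. Tubb5 in negative cells was at 1.24 at 24 h and 0.74 at 48 h, but at −0.97 at 96 h and −1.47 at P14. Tubb4b was at 0.70, 0.39, −0.37 and −1.06. At P14 the median of all genes was −0.33, and TMM scaling, which moved it by 0.35, gave Tubb4b −0.71. Thinning both libraries before the call gave Tubb5 −0.77 and Tubb4b −0.57 at P14, still lower but short of 2-fold, and Tubb4b 0.41 at 96 h. At 48 h it gave Tubb5 1.48, Tubb4b 1.24 and Tuba1c 1.25, all past 2-fold.

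The mixture of isotypes shifted with these changes. Counts of 3′ ends do not grow with transcript length, so shares are of captured molecules. Tuba4a, which is not a member, made up 59.7% of alpha tubulin UMIs in adult control hepatocytes (57.6% to 61.8%), 28.0% at 24 h, 15.4% at 48 h, 34.8% at 96 h and 38.0% at P14. Its own level was 98.9 CPM in the adult control and 72.0 at 48 h. Tuba1b made up 13.7%, 42.2%, 49.2%, 35.0% and 34.0%. In positive cells Tuba1b held between 47.0% and 53.7% at 24 h, 48 h, 96 h and P14, and in negative cells between 17.6% and 35.8%.

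Among beta tubulins of the adult control, Tubb4b made up 43.7% and Tubb5 38.8%. At 24 h Tubb5 led with 42.0%, and at 96 h Tubb4b with 50.8%. Negative cells at P14 were set apart by Tubb2a, at 55.0% (53.7% to 56.2%) against 16.7% in positive cells of that library. The same shares were 37.4% and 19.4% at 24 h, 35.9% and 14.4% at 48 h, and 23.1% and 12.8% at 96 h. Tubb6, another beta tubulin outside the members, was at 2.2% in the adult control and 12.1% at 48 h. Its level was 3.75 CPM in the adult control, 38.7 CPM at 24 h, 105 CPM at 48 h and 21.4 CPM at 96 h, and at 48 h it stood at 152 CPM in positive and 22.0 in negative cells. Tubulin genes of one family are alike in sequence, and how reads matching several of them were assigned is not given in the sources used here.

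**Figure D4:**
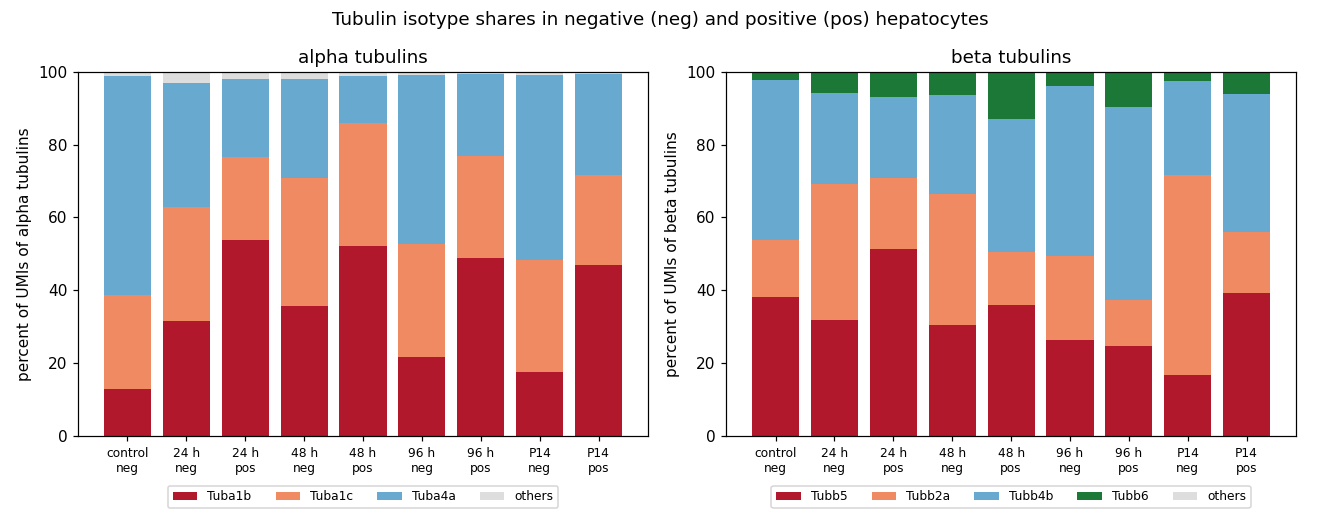
Share of each alpha tubulin (left) and beta tubulin (right) in the UMIs of its family (vertical axis, percent), in negative (neg) and positive (pos) hepatocytes of each library, the adult control with negative cells alone. Tuba4a takes most of the adult control negative bar on the left, Tuba1b grows in every positive bar, and Tubb2a fills 55.0% of the P14 negative bar on the right.

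A finer order was read from the number of mitosis genes found in a cell thinned to 5000 UMIs, from a list of 18, and of replication genes from a list of 19. Resting cells showed 0 mitosis genes with no more than 1 replication gene, and replicating cells showed 0 mitosis genes with at least 3 replication genes. These steps were set after the data were seen. At 48 h Tubb5 stood at 89.7 CPM in 219 resting cells, 209 in 48 replicating cells, 226 with 1 to 2 mitosis genes, 471 with 3 to 5 and 517 with 6 or more. Tuba1b stood at 69.2, 124, 179, 330 and 397 CPM over the same steps. Both were above resting cells already in replicating cells, by log2 ratios of 1.21 and 0.83.

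Tubb4b, in contrast, was at 87.7 CPM in resting and 107 in replicating cells of 48 h, an interval of the log2 ratio from −0.01 to 0.58, and reached 610 in cells with 6 or more mitosis genes. Tuba1c was at 78.6, 88.0, 116, 171 and 278 CPM. At P14 replicating cells were at log2 ratios of 2.03 for Tubb5 and 2.04 for Tuba1b, but 0.34 for Tubb4b and −0.36 for Tuba1c. Unlike at 48 h, Tubb5 and Tuba1b were then lower with 1 to 2 mitosis genes, at 1.88 and 1.69. Cells with 6 or more mitosis genes there were at 5.05 for Tubb5, 4.56 for Tuba1b, 4.32 for Tubb4b and 2.75 for Tuba1c. Stmn1 in such cells was at 5.21 at 24 h, 3.51 at 48 h, 5.05 in the 96 h library and 4.68 at P14.

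Tubb2a at 48 h stood at 123 CPM in resting cells and 183 in cells with 6 or more mitosis genes. Its log2 ratio in such cells was 0.20 at 24 h, 0.58 at 48 h and 1.38 at P14, and 2.79 in the 96 h library. Actg1, at 0.83, 1.2 and 1.73 in the first 3 of these, lay above Tubb2a there and below Tubb5, Tuba1b and Tubb4b. It went from 161 CPM in resting cells to 371 in cells with 6 or more mitosis genes at 48 h, and from 112 to 372 at P14. For Krt8, Krt18 and Actb the log2 ratios over resting cells lay between −0.41 and 0.59 over all steps of these 4 libraries, so none reached 2-fold. Actb was higher with each step at P14, at −0.00, 0.30, 0.42 and 0.55, and stood at 0.36, 0.38 and 0.49 over the 3 steps that had enough cells at 96 h. Krt18 at 96 h was at 0.59 with 1 to 2 mitosis genes and −0.15 with 6 or more. Krt18 in cells with 6 or more mitosis genes was at −0.31 at 24 h, −0.16 at 48 h and −0.23 at P14.

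**Figure D5:**
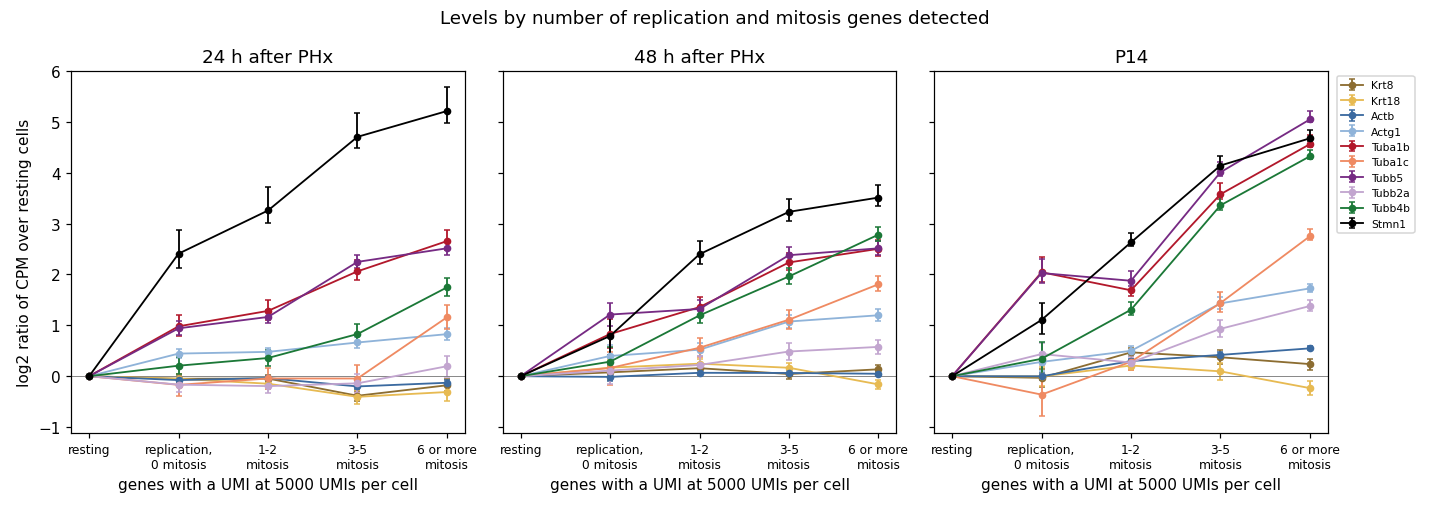
Log2 ratio of the CPM over resting cells (vertical axis) by number of replication and mitosis genes found at 5000 UMIs per cell, at 24 h, at 48 h and at P14, with 95% intervals. Tubb5 and Tuba1b are above 0 in replicating cells of all 3 libraries, Tubb4b and Tuba1c climb later, and Krt8, Krt18 and Actb stay between −0.41 and 0.55 in these 3 libraries.

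Among genes that assist tubulin and actin, the shares are to be read beside the percentages of all genes given above, such as 8.51% higher at 24 h. Of the folding machinery (the chaperonin subunits, prefoldin and the tubulin cofactors), 2 of 17 tested genes were 2-fold higher at 24 h, 2 of 18 at 48 h, 1 of 18 at 96 h and 1 of 19 at P14, and none was lower. The tubulin cofactor Tbca was at 307 CPM at 24 h against 150 in the adult control. Chaperonin subunits Cct4 and Cct8 were at log2 ratios of −0.12 and −0.09. Of 19 microtubule-binding genes tested, 4 were 2-fold higher at 24 h, 2 at 48 h and 1 at 96 h, and at P14 1 was higher and 1 lower. Dynll1, a light chain of the dynein motor, stood at 74.3 CPM in the adult control, 363 CPM at 24 h, 376 CPM at 48 h and 161 CPM at 96 h. Ckap5, which speeds microtubule growth, was at 38.8 CPM in positive and 7.92 in negative cells of 48 h. Of the other actins and the other stathmins, no gene reached 5 CPM in any comparison.

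Other genes were ranked by how closely their log2 level, centred on its mean, followed that of a member over 9 groups (positive and negative cells of each library, without the positive cells of the adult control), among 6373 genes of at least 20 CPM in 1 of the groups. The groups share libraries, and the likeness is a description. Nearest to Krt8 were 1810022K09Rik, Polr2l and Arpp19, at distances of 0.41, 0.59 and 0.67 log2 units, and nearest to Krt18 were Crip2, Krtcap2 and Srp19. Nearest to Actb were Stk24, Kif5b and Usp6nl, with distances of 0.33 to 0.34, and nearest to Actg1 were Plscr1, Cdk2 and Tfdp1. For Tuba1b they were Gins2, Cenpw and Plk4, and for Stmn1 they were Foxm1, Ccdc34 and Knstrn, at distances of 1.03 to 1.15.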

How the data were processed

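The deposited files hold raw UMI counts per gene and barcode, 1 sparse matrix per library, written by software version 3.0.2 per the file headers. Per the submitters' processing notes, bcl2fastq 2.17.1.14, Cell Ranger, Seurat 3.1 and build mm10 were used. Each matrix listed 31053 genes and 6794880 barcodes, with 80927744 to 136110607 UMIs, and so held empty droplets. Counting settings are not given in the sources used here. The members and lists were chosen with earlier results of these data known.

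Hepatocyte counts of a library were added up and scaled by the total left after removing 13 mitochondrial genes (Python 3.11.15, NumPy 2.4.6, SciPy 1.17.1). Ratios were log2((CPM + 1)/(CPM + 1)), which understates changes of low genes. Their 95% intervals are exact conditional binomial intervals without that pseudocount. Levels have exact Poisson intervals, and shares of cells Clopper-Pearson intervals. UMIs limit PCR copies, and all intervals cover counting error only. A gene counted as higher or lower at 2-fold with at least 5 CPM in either group, and no p-value was computed. A side with under 20 cells was given as values only. Other classes were barcodes outside the hepatocyte rule with at least 1000 UMIs, under 30% mitochondrial UMIs and at least 3 markers of 1 class. They held fewer than 2 markers of any other class, but hepatocyte and general leukocyte markers were not limited. In each library 8 to 84 T or NK barcodes lay 1 marker short. The erythroid class was not described because free hemoglobin RNA put 4533 adult control barcodes in it. Doublets were kept, and removal of the highest Scrublet scores (scanpy 1.11.5) was an alternative.

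Named genes were all members and reference genes and, from each other list, the 2 highest and 2 lowest log2 ratios of genes with at least 20 CPM. Gene positions are from GENCODE M21. TMM (edgeR 4.0.16) and DESeq2 1.42.0 gave alternative scaling only. Calls were checked on simulated counts with counting error alone, which carry no variation between cells or libraries. Alternatives numbered up to 13 for the library comparison, 15 for positive over negative cells and 16 for negative cells over those of the adult control.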

Additional observations from a re-analysis of the deposited data

Results flagged for a closer look

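The log2 ratio of positive over negative cells had opposite signs in 2 libraries for 4 genes, and these differences were not tested. It was 0.30 at 96 h and −0.18 at 24 h for Krt8, of which the 96 h value was −0.00 with cells thinned to 5000 UMIs, and 0.19 at 96 h and −0.11 at 24 h for Krt18, of which the 96 h value was negative under 5 of 14 alternative settings, down to −0.28. For Actb it was 0.32 at P14 and −0.14 at 24 h. For Tubb2a it was 1.95 at 96 h and −0.11 at 24 h, and at 24 h 1 of 14 alternative settings, thinning to 5000 UMIs, turned the sign positive.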

How the results depend on the processing

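Counts of members past 2-fold that moved by more than 1.5 times were as follows. For 96 h over the adult control, subtraction of free RNA gave 5 higher in place of 3. For negative cells of P14, the number lower was 2 and became 1 with CPM over all UMIs, TMM, DESeq2 size factors, hepatocyte transcripts of at least 5%, free RNA subtracted or a pseudocount of 10 CPM, and 0 with cells thinned to 5000 UMIs. The pseudocount of 10 CPM left 1 higher in place of 2. For negative cells of 48 h, thinning gave 8 higher in place of 5. For negative cells of 96 h, 10% to 20% mitochondrial UMIs gave 1 higher in place of 2, and 1 was lower in place of 0 when positive meant 3 mitosis genes or when resting cells were called at equal depth, a setting chosen after the data were seen. Stmn1 in negative cells of 96 h reversed to −0.76 at 10% to 20% mitochondrial UMIs, where only 47 negative cells of that library were left. The cause was not tested. TMM moved the median of all genes by 0.27 for P14 over the adult control, so ratios there are best read against it. Hepatocyte transcripts of at least 5% could not be run at 24 h and 48 h, with 6 and 2 cells left. Where it was run, it left 47 cells of the adult control. Nor could 10% to 20% mitochondrial UMIs be run for positive over negative at 96 h, with 6 positive cells. No paired analysis was possible between libraries because there was 1 library per group. Positive and negative cells share a library and are compared within it, and a test over the 4 libraries, which are different conditions, was not run. Values for positive cells of the adult control rest on 15 cells.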
